A study of Rattus norvegicus with 15 samples.

Results

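Pancreatic islets make 5 peptide hormones outside the insulin-producing beta cells that are described here: glucagon (Gcg), somatostatin (Sst), pancreatic polypeptide (Ppy), peptide YY (Pyy) and ghrelin (Ghrl). The genes were chosen by name, and the 5 are among the 17055 genes counted. The study took islets of Sprague-Dawley rats at 10 days of age (1.5 weeks in the labels), dispersed them into cells and transfected these with a mimic of miR-17-5p, that is a synthetic RNA supplying this microRNA, or with a control mimic. The mRNA libraries were made from poly(A) RNA, and RNA pulled down with an antibody to Ago2 was sequenced as RISC libraries. Ago2 is the Argonaute protein that holds the microRNA in the RNA-induced silencing complex (RISC). There were 5 miR-17-5p mRNA, 4 miR-17-5p RISC, 3 control mRNA and 3 control RISC libraries, 15 in all. Every group was of the same strain and age, no genetic change is given for any of them, and the cells were whole islet preparations in which beta, alpha, delta, PP, epsilon and non-endocrine cells were not separated.

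Glucagon comes from alpha cells and raises blood glucose by acting on the liver. Somatostatin, from delta cells, restrains the release of both insulin and glucagon from neighbouring cells. Pancreatic polypeptide and peptide YY are related peptides of the neuropeptide Y family, the first from PP cells and the second from several islet cell types early in life, while ghrelin marks the epsilon cells, which are most frequent around birth.

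The mimic supplied rno-miR-17-5p, whose seed, the bases that pair with target RNAs, is shared with 4 other rat microRNAs among 693 mature names in RefSeq (GRCr8). They are shown because microRNAs that share a seed can share targets. Capitals mark the seed, bases 2 to 8.
rno-miR-17-5p: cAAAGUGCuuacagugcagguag
rno-miR-20a-5p: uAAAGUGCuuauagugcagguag
rno-miR-20b-5p: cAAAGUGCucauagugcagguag
rno-miR-93-5p: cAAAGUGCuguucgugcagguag
rno-miR-106b-5p: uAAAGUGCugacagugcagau
The miR-17-5p sequence lies at chr15:98587861-98587883 on the plus strand of GRCr8. Outside the seed the 5 sequences differ from one another.

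The 5 hormone genes lie on chromosomes 3 (Gcg), 4 (Ghrl), 10 (Ppy and Pyy) and 11 (Sst), and all 5 are annotated as protein coding. Ppy and Pyy are neighbours, with 0 genes starting between them. The 100 bases upstream of the annotated start are shown for this neighbouring pair and for Ghrl, which of the other hormone genes varied most like Pyy. Capitals mark TATAA, the core of a TATA box, searched on both strands (TATAA or TTATA).
Pyy promoter: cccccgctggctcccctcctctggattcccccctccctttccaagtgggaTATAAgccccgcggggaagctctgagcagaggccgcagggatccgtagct
Ppy promoter: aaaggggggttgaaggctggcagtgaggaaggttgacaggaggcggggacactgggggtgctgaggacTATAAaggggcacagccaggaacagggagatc
Ghrl promoter: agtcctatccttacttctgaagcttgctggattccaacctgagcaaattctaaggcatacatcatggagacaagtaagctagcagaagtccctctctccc
These windows are chr10:87562471-87562570, chr10:87556237-87556336 and chr4:148425225-148425324 on the minus strand of GRCr8. TATAA began 50 bases before the start in Pyy and 32 bases before it in Ppy, and these letters were not found in the Ghrl window. Gcg also held TATAA at 32 bases before its start, with a reverse-strand match at 79 bases, and Sst held none. Among 33469 rat promoter windows of the same length, 11% held TATAA on either strand. The Sst gene is the textbook carrier of a cyclic AMP response element (CRE), TGACGTCA, a palindrome that reads the same on both strands.
Sst, CRE in capitals: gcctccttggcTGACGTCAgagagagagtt
This stretch is chr11:90461537-90461566 on the plus strand, and the element began at base 3 after the RefSeq start. In windows of 300 bases around the start, 1.83% of genes held the element, and Sst did so among the 5 hormone genes.

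Library totals ran over 3379456 to 21056240 counts in mRNA and over 4185123 to 13420403 counts in RISC. The 5 hormone genes took 0.323% to 0.671% of the counts in RISC libraries and 1.05% to 1.82% in mRNA libraries. Ins1 and Ins2 took 0.947% to 1.97% in RISC and 26.2% to 41.8% in mRNA. Rn45s, the ribosomal RNA precursor, took 23.6% to 42.6% in RISC and 3.14% to 12.8% in mRNA. RISC libraries were patchy. Of genes with at least 100 counts in 1 library, 9.55% were at 0 in another library of the group in miR-17-5p RISC and 43.7% in control RISC, against 0.478% in miR-17-5p mRNA and 0.0659% in control mRNA.

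In mRNA, ghrelin and peptide YY transcripts were lower in miR-17-5p cells, and glucagon transcripts showed the smallest difference of the 5. Levels are given as CPM (counts scaled to library size with TMM factors), and differences as log2 fold changes with their standard errors from edgeR, with a Benjamini-Hochberg adjusted p under 0.05 as called. Of the 5 genes, 2 were called, both lower, where 3.87% of 11077 tested genes were called, 3.11% higher and 0.767% lower. Point estimates for all 5 lay below 0, while the median over all genes tested was 0.01. Here and below, whether groups overlap only describes the libraries, since the share of all genes without overlap was not counted.

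Ghrl, the gene of the epsilon cell hormone that stimulates appetite, had 27.9, 36.5, 35.0, 25.8 and 23.7 CPM in miR-17-5p libraries 1, 2, 4, 5 and 6, against 82.7, 65.0 and 46.2 CPM in control libraries 1, 2 and 3. All 5 miR-17-5p libraries lay below every control library, and control library 1 was the highest. The log2 difference was -1.13 ± 0.20 (SE, 2.19-fold lower, edgeR adjusted p = 0.00894). The call was lost without control library 1 (log2 difference -0.91, adjusted p = 0.0502 by edgeR) and without control library 2 (-1.13, adjusted p = 0.0544 by edgeR). Counts behind these values were low, 148 to 881 per library. The mRNA of Mboat4, the enzyme that acylates ghrelin, was near the floor in the same libraries, at 0.299 to 1.17 CPM in miR-17-5p and 0.470 to 0.936 CPM in control cells.

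Pyy, the gene of a gut and islet peptide that slows feeding and digestion, had 377, 461, 438, 421 and 381 CPM in miR-17-5p libraries 1, 2, 4, 5 and 6, against 935, 722 and 518 CPM in control libraries 1, 2 and 3. All 5 miR-17-5p libraries again lay below every control library, within a narrow band, while the control libraries spread widely. Pyy was lower by 1.75-fold (log2 difference -0.80 ± 0.17, SE, edgeR adjusted p = 0.0183). The call was lost without control library 1 (log2 difference -0.58, adjusted p = 0.0875 by edgeR) and without control library 2 (-0.81, adjusted p = 0.0896 by edgeR).

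Ppy, the PP cell hormone gene next to Pyy, had 600, 1155, 916, 626 and 580 CPM in miR-17-5p libraries 1, 2, 4, 5 and 6, against 2153, 1072 and 1265 CPM in control libraries 1, 2 and 3. The groups overlapped, since miR-17-5p library 2 lay above control library 2, and 4 of 5 miR-17-5p libraries lay below every control. The log2 difference was -0.95 ± 0.27 (SE, edgeR adjusted p = 0.0711), which did not pass. Without miR-17-5p library 2 it passed (-1.13, adjusted p = 0.0191 by edgeR), and limma-voom called it on all libraries (adjusted p = 0.00364).

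Sst, the delta cell hormone gene, had 895, 803, 458, 585 and 506 CPM in miR-17-5p libraries 1, 2, 4, 5 and 6, against 1248, 966 and 907 CPM in control libraries 1, 2 and 3. The groups did not overlap, but miR-17-5p library 1 lay just below control library 3. The log2 difference of -0.68 ± 0.21 (SE) did not pass (edgeR adjusted p = 0.0961), and without miR-17-5p library 1 it did (-0.82, adjusted p = 0.0195 by edgeR). DESeq2 and limma-voom called it on all libraries (adjusted p = 0.021 and 0.00206).

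Gcg, the alpha cell hormone gene, had 11208, 9571, 8713, 9401 and 8853 CPM in miR-17-5p libraries 1, 2, 4, 5 and 6, against 13032, 9606 and 8794 CPM in control libraries 1, 2 and 3. The groups overlapped across nearly their whole range. The log2 difference was -0.13 ± 0.18 (SE, edgeR adjusted p = 0.749), and it changed sign to 0.06 without control library 1. Whether it differed from the differences of the other hormone genes was not tested. Fewer cells of a type and less RNA per cell cannot be told apart in these bulk libraries.

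**Figure D1:**
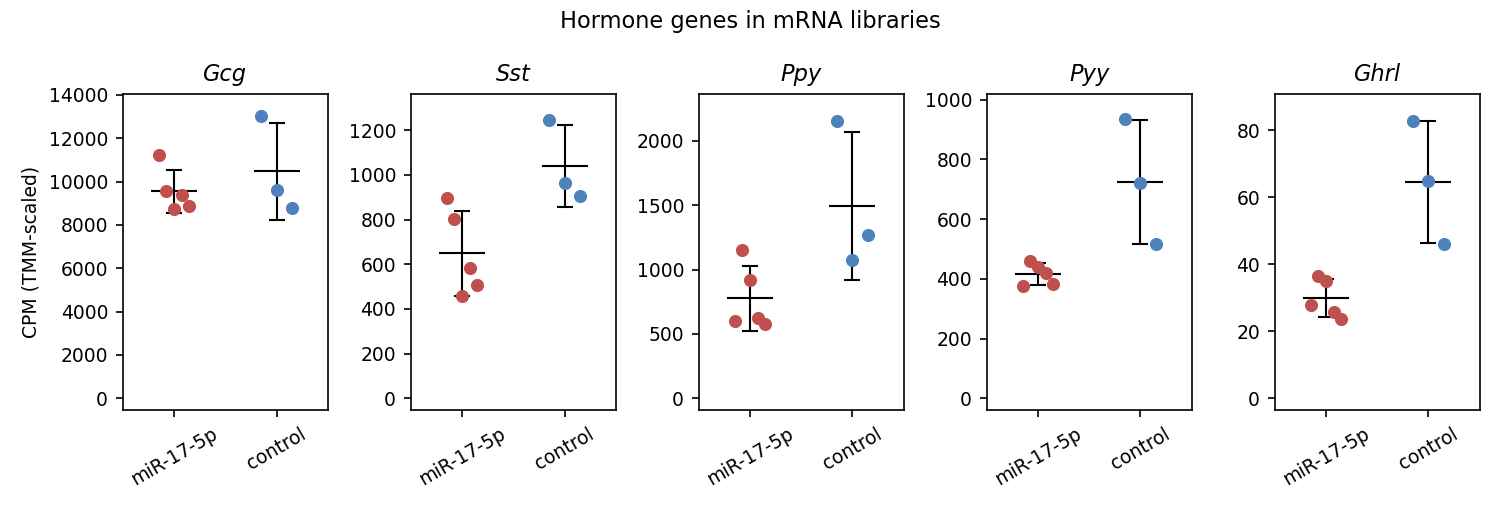
CPM of the 5 hormone genes in mRNA libraries on a linear axis for each gene, with miR-17-5p libraries in red, control libraries in blue, and black bars for the mean ± SD (n = 5 miR-17-5p, 3 control). Sst, Pyy and Ghrl show no overlap between the groups, while Gcg and Ppy do. The share of all genes without overlap was not counted. Control library 1, the leftmost blue point, is the highest of all libraries for each gene.

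The beta cell hormone genes served as comparison. Ins1 had a log2 difference of -0.23 ± 0.26 and Ins2 of -0.32 ± 0.27 (SE, edgeR adjusted p = 0.692 and 0.574). Iapp, the gene of the amyloid peptide released with insulin, had -0.86 ± 0.33 (adjusted p = 0.18 by edgeR). It had 1642 CPM in miR-17-5p library 1, within the control range of 1414 to 1679 CPM, and 515 to 866 CPM in the other miR-17-5p libraries.

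Shares within a library depend on no scaling factor. Gcg made up 79.6% to 85.6% of the summed counts of the 5 genes in miR-17-5p mRNA libraries (mean 83.6% ± 2.59, SD, n = 5), against 74.7% to 77.3% in control mRNA libraries (76.1% ± 1.31, SD, n = 3). Every miR-17-5p library had a higher Gcg share than every control library. Sst took 4.34% to 6.83% in miR-17-5p and 7.15% to 7.87% in control libraries, and Pyy 2.88% to 4.15% and 4.49% to 5.81%, without overlap in either gene. The Ghrl share was 0.213% to 0.331% in miR-17-5p and 0.400% to 0.523% in control libraries, also without overlap. Ppy shares overlapped, at 4.58% to 9.60% in miR-17-5p and 8.63% to 12.3% in control libraries. These shares sum to the same whole, so they are not separate results, and no test was made on them. The widest 95% Wilson interval of any share in an mRNA or RISC library was 0.868 percentage points, which covers counting error only.

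Set against the insulin genes, the picture was less clear. The log2 ratio of Ghrl to summed Ins1 and Ins2 counts averaged -13.41 ± 0.55 in miR-17-5p and -12.61 ± 0.56 in control mRNA libraries (SD, n = 5 and 3), and the groups overlapped, with 3 of 5 miR-17-5p libraries below every control. For Pyy the ratio averaged -9.59 ± 0.46 in miR-17-5p and -9.12 ± 0.57 in control libraries, and 1 of 5 miR-17-5p libraries lay below every control. By the same ratio, Sst had 4 of 5 and Ppy 3 of 5 miR-17-5p libraries below every control. Gcg had 0 below and 1 above every control.

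**Figure D2:**
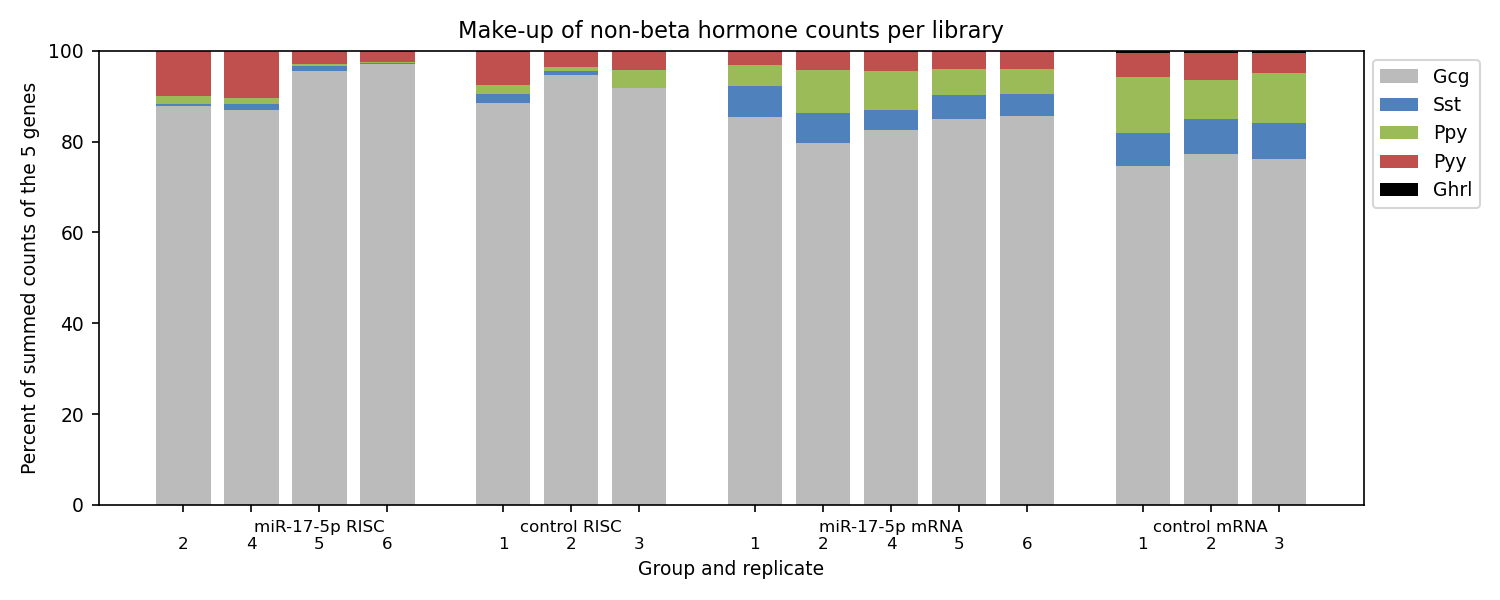
Percent of the summed counts of Gcg, Sst, Ppy, Pyy and Ghrl in each library, stacked to 100, by group and replicate number. Gcg holds 79.6% to 85.6% in miR-17-5p mRNA and 74.7% to 77.3% in control mRNA libraries, and in RISC libraries Sst and Ppy are thin bands in both transfections.

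Across the 8 mRNA libraries Pyy and Ghrl varied together, with Pearson r = 0.97 on log2 CPM, and 0.89 after the group means were taken off. Ppy followed them, at r = 0.91 with Ghrl and 0.87 with Pyy, while Gcg and Ghrl had r = 0.51. With group means taken off the contrast was smaller. Ppy then had r = 0.80 with Ghrl and 0.67 with Pyy, and Gcg had 0.53 with Ghrl and 0.62 with Pyy. These correlations describe 8 libraries that share their scaling and group structure. Among 5949 genes whose log2 CPM averaged 4 or more, the 3 most like Ghrl were Hexdc (0.97), Pyy and Taf6 (0.94), and those most like Pyy were Npdc1 (0.97), Ghrl and Taf6 (0.93). Sst varied most like Krt18 (0.98), Hexim1 (0.97) and Prpf19 (0.96). Gcg varied most like Cstf1 (0.97), Ptov1 (0.94) and Mcfd2 (0.93), and Ppy most like H3f3b (0.94), Nubp1 (0.92) and LOC686295 (0.91).

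Other genes listed for the hormone-producing cell types are read beside the median of 0.01 over all genes tested. Since cells were not separated, the cells their reads came from are not known. Alpha cell genes had 0 of 13 called and a median log2 difference of -0.27, with Smarca1 at 1.23 ± 0.38 and Gc at -0.47 ± 0.15 (SE, edgeR adjusted p = 0.0969 and 0.0994). Delta cell genes had 1 of 8 called, Nrg1, a growth factor, higher by 1.72 ± 0.32 (SE, edgeR adjusted p = 0.00955), with a list median of -0.19. Hhex, the delta cell transcription factor, had 3.50 to 5.08 CPM in miR-17-5p and 3.76 to 4.68 CPM in control libraries. PP and epsilon cell genes had 0 of 5 called, 3 point estimates above 0 and 2 below, and a median of 0.09. Fev, a transcription factor, had -0.60 ± 0.36, Etv1 0.26 ± 0.18 and Acsl1 0.09 ± 0.22 (SE, edgeR adjusted p of 0.411 to 0.864).

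Pan-endocrine transcription factors had 0 of 15 called, 13 point estimates below 0 and a median log2 difference of -0.52. Pax6 had -0.72 ± 0.20 and Pdx1 -0.60 ± 0.17 (SE, edgeR adjusted p = 0.06 each). Granule proteins had 0 of 12 called, all 12 point estimates below 0 and a median of -0.46, with Chga, the core granule protein chromogranin A, at -0.58 ± 0.17 (SE, edgeR adjusted p = 0.074). Their summed level was 5785 to 8328 CPM in miR-17-5p and 8777 to 9659 CPM in control libraries. Prohormone processing genes, the convertases and their helpers, had 0 of 9 called (median -0.26). Other peptide hormone genes had 0 of 15 called, with Vip at -1.68 ± 0.46 (SE, edgeR adjusted p = 0.0587).

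Among receptors for islet and gut hormones, 2 of 13 were called, both lower (median -0.34). Gipr, the receptor for the incretin GIP, had 179 to 272 CPM in miR-17-5p and 354 to 381 CPM in control libraries, without overlap (log2 difference -0.73 ± 0.14, SE, edgeR adjusted p = 0.0133). Sstr3, a somatostatin receptor, had 36.9 to 54.7 CPM in miR-17-5p and 63.3 to 82.8 CPM in control libraries, also without overlap (-0.80 ± 0.16, SE, edgeR adjusted p = 0.0148).

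Markers of other cells moved between the same groups. Stellate and fibroblast markers had 10 of 17 called, all higher, with a median log2 difference of 1.01 and a summed level of 19338 to 42835 CPM in miR-17-5p and 10661 to 18288 CPM in control libraries, and 1 of 18 listed genes at 0 in all libraries of each group. Acta2, smooth muscle actin, had 1.97 ± 0.25 and Tagln 1.70 ± 0.20 (SE, edgeR adjusted p = 0.00128 and 0.00105). All 17 macrophage and leukocyte markers had point estimates above 0, with 0 called and a summed level of 230 to 549 CPM in miR-17-5p and 107 to 401 CPM in control libraries. Red blood cell markers had 3 of 4 called, all lower, and summed to 10.3 to 25.7 CPM in miR-17-5p and 34.7 to 151 CPM in control libraries. Endothelial markers had 2 of 11 called lower, duct 1 of 8 lower (Epcam), acinar 0 of 8, and Schwann and neural 1 of 11 higher and 1 lower. The part of these cells in the hormone differences was not tested. When libraries were scaled to the summed counts of the granule protein list, a choice made after seeing the data, 0 of 5 hormone genes were called. Over all genes, 2324 were called by edgeR under this scaling. Ghrl then had -0.64 (edgeR adjusted p = 0.0781), Pyy -0.31 and Gcg 0.34, while the median of all genes moved to 0.50.

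In RISC libraries 0 of 4 tested hormone genes were called between miR-17-5p and control cells, where 0.371% of 9443 tested genes were called by edgeR, 0.339% higher and 0.0318% lower. The median over all genes tested was 0.27. Ppy had an unadjusted p under 0.05 (1899 of all genes did), and DESeq2 and limma-voom also called 0. The count rested on few, uneven libraries, with a common biological coefficient of variation of 1.23 in RISC against 0.305 in mRNA.

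Ppy had 55.7, 51.1, 19.6 and 17.3 CPM in miR-17-5p RISC libraries 2, 4, 5 and 6, against 76.2, 65.3 and 171 CPM in control RISC libraries 1, 2 and 3. All 4 miR-17-5p libraries lay below every control, the log2 difference was -1.53 ± 0.62 (SE), and it did not pass (edgeR adjusted p = 0.193). Pyy had 314, 420, 110 and 187 CPM in miR-17-5p RISC libraries, against 278, 266 and 175 CPM in control RISC libraries. These overlapped, with 2 miR-17-5p libraries above every control and 1 below, and a log2 difference of 0.10 ± 0.43 (SE, edgeR adjusted p = 0.986).

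Gcg had 2819, 3511, 3732 and 7233 CPM in miR-17-5p RISC libraries 2, 4, 5 and 6, against 3438, 7054 and 3854 CPM in control RISC libraries 1, 2 and 3. Both groups overlapped and each held 1 high library (log2 difference -0.15 ± 0.37, SE, edgeR adjusted p = 0.978). Sst had 18.6, 50.9, 46.3 and 14.2 CPM in miR-17-5p RISC libraries, against 75.5, 67.6 and 0 CPM in control RISC libraries. Control RISC library 3 held 0 Sst counts of 4185123, which allows up to 0.717 CPM before scaling, and the log2 difference of -0.55 ± 1.48 (SE, edgeR adjusted p = 0.981) carried that spread. Ghrl had 54, 0, 1 and 0 counts in miR-17-5p RISC libraries and 195, 0 and 0 counts in control RISC libraries, was removed by the filter on low counts, and was not tested. Iapp had -1.62 ± 0.40 (SE, edgeR adjusted p = 0.0725), with no overlap between the groups. Stellate and fibroblast markers, 6 of 16 called higher, summed to 29085 to 32287 CPM in miR-17-5p RISC and 5411 to 12018 CPM in control RISC libraries, and pan-endocrine transcription factors, 0 of 15 called, to 2986 to 3330 and 4625 to 5377 CPM. The part of other cells in these values was not tested.

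**Figure D3:**
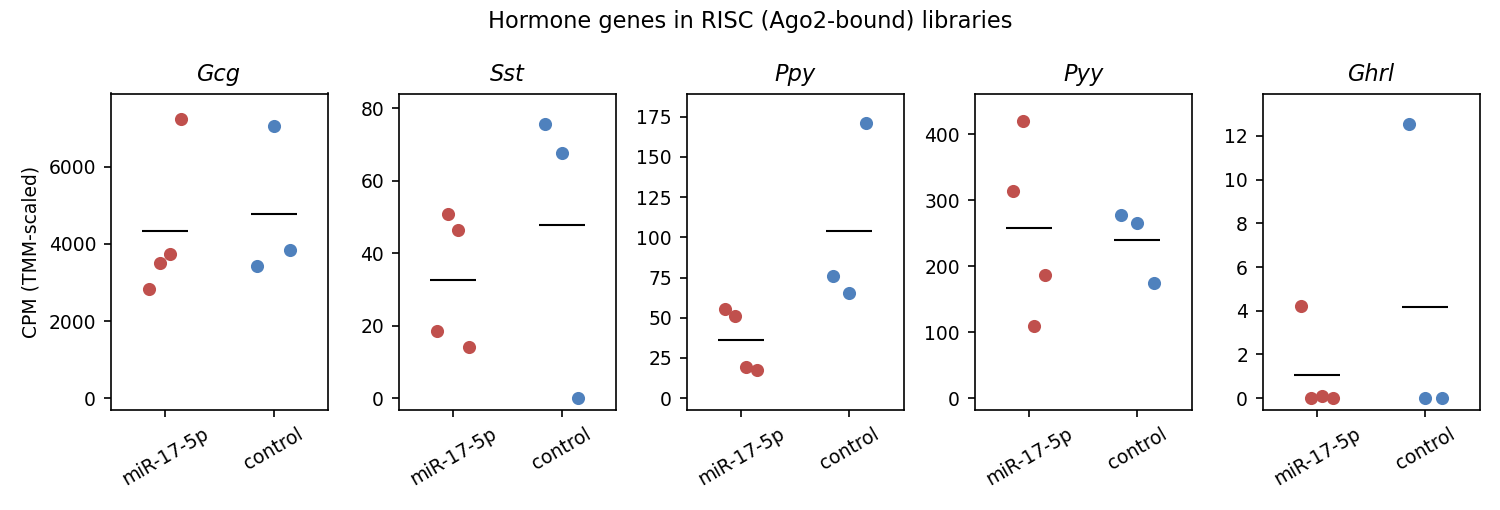
CPM of the 5 hormone genes in RISC libraries on a linear axis for each gene, with miR-17-5p libraries in red, control libraries in blue, and a black bar for the mean (n = 4 miR-17-5p, 3 control). Ppy is the hormone gene without overlap between the groups, and Sst and Ghrl have libraries at 0. The share of all genes without overlap was not counted.

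The difference between the RISC and the mRNA changes was tested in 1 model of the 15 libraries, and 0 of 5 hormone genes were called where 13.4% of 11418 tested genes were called by edgeR, 13% higher and 0.394% lower. At an unadjusted edgeR p under 0.05 there were 0 of 5 hormone genes and 2889 of the 11418 genes tested. DESeq2 and limma-voom also called 0 hormone genes, but limma-voom called 0 of all genes. The comparison shares its libraries with the single ones, and the median over all genes tested was 0.40. Pyy had the smallest p of the 5, with log2 changes of 0.10 in RISC and -0.80 in mRNA, a difference of 0.89 ± 0.49 (SE, unadjusted p = 0.0866, edgeR adjusted p = 0.292). Ppy had -0.59 ± 0.63 and Gcg -0.03 ± 0.42 (SE). Sst and Ghrl had standard errors of 1.25 and 2.15, so that differences of several fold in either direction were not detectable.

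Compared with mRNA libraries, RISC libraries held lower levels of all 5 hormone genes, by very different amounts. In miR-17-5p cells all 5 were called lower, where 43.5% of 10871 tested genes were called, 21.7% higher and 21.8% lower. The median of all genes was -0.15. Ppy was 26.4-fold lower in RISC (log2 difference -4.72 ± 0.43, SE), and Sst was 24.4-fold lower (-4.61 ± 0.44, SE), with edgeR adjusted p of 6.75e-06 and 9.33e-06. Ghrl had -4.93 ± 1.12 (SE, edgeR adjusted p = 0.00388), from RISC libraries of 0 to 54 counts. Gcg was 2.74-fold lower (-1.45 ± 0.25, SE, edgeR adjusted p = 0.000678) and Pyy 2.00-fold lower (-1.002 ± 0.30, SE, edgeR adjusted p = 0.018). The Pyy call was lost without miR-17-5p library 5 or 6 (edgeR adjusted p = 0.0518 and 0.0736).

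In control cells, whose libraries are separate from those of the miR-17-5p cells, 3 of 5 were called lower, where 28.2% of 10170 tested genes were called, 5.96% higher and 22.3% lower. The median of all genes was -0.69. Ppy was 19.6-fold lower (-4.29 ± 0.53, SE, edgeR adjusted p = 0.00817), Pyy 4.11-fold lower (-2.04 ± 0.31, SE, edgeR adjusted p = 0.0091) and Gcg 2.99-fold lower (-1.58 ± 0.33, SE, edgeR adjusted p = 0.0155). Without control library 1 of both kinds 0 of 5 were called, with log2 differences of -3.76 for Ppy, -1.95 for Pyy and -1.21 for Gcg. The Gcg call was also lost without control library 3 and the Pyy call without control library 2. These fits had fewer libraries, and the number called over all genes also varied widely between them. The lost calls therefore need not be particular to the hormone genes. Sst had -4.88 ± 1.75 (SE, edgeR adjusted p = 0.105) and passed without control library 3, the one at 0 in RISC (-4.40 ± 0.25, SE, edgeR adjusted p = 0.0429). Ghrl had -4.35 ± 2.37 (SE, edgeR adjusted p = 0.29). Of the beta cell hormone genes, Ins1 was 34.9-fold lower in RISC in miR-17-5p cells and 34.7-fold lower in control cells. Ins2 was 27.8-fold lower in miR-17-5p and 29.3-fold lower in control cells, and Iapp 6.13-fold and 4-fold lower. Each was called in both.

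**Figure D4:**
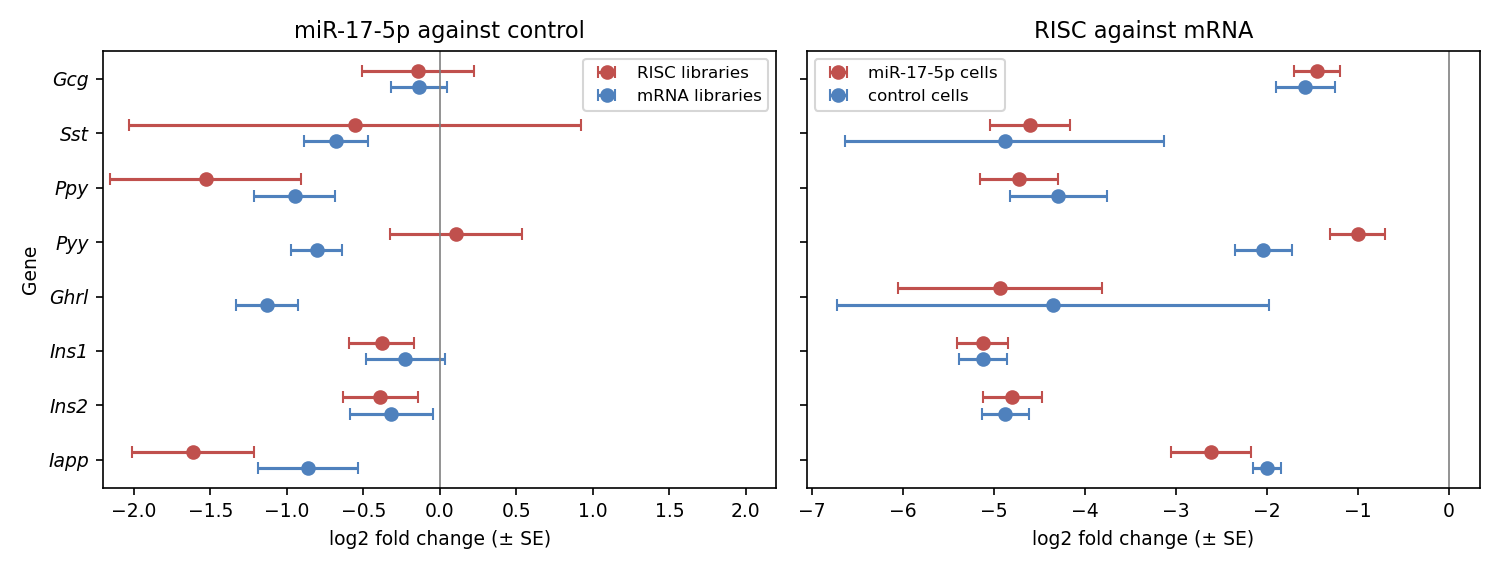
Log2 fold changes with standard errors for the 5 hormone genes and 3 beta cell hormone genes, miR-17-5p against control on the left (RISC in red, mRNA in blue) and RISC against mRNA on the right (miR-17-5p cells in red, control cells in blue). In RISC against mRNA, Gcg and Pyy lie between -2.04 and -1.002, and Sst, Ppy and Ghrl between -4.93 and -4.29. Ghrl has no RISC point on the left because it was not tested.

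The neighbours Ppy and Pyy took opposite places in the library types. Pyy had 5.63, 8.21, 5.58 and 10.8 counts for each Ppy count in miR-17-5p RISC libraries 2, 4, 5 and 6, against 0.629, 0.399, 0.478, 0.672 and 0.657 in miR-17-5p mRNA libraries 1, 2, 4, 5 and 6. In control cells the ratio was 3.65, 4.07 and 1.02 in RISC libraries 1, 2 and 3, against 0.434, 0.673 and 0.410 in mRNA libraries 1, 2 and 3. Every RISC library therefore held more Pyy than Ppy counts, though control RISC library 3 did so by 928 against 907 counts, and every mRNA library held fewer. The ratio needs no scaling factor. The mRNA libraries were selected with oligo(dT) and no such selection is stated for RISC, and the part of this difference in the ratio was not tested. This pattern was picked after its values were seen, and no test was made on it.

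**Figure D5:**
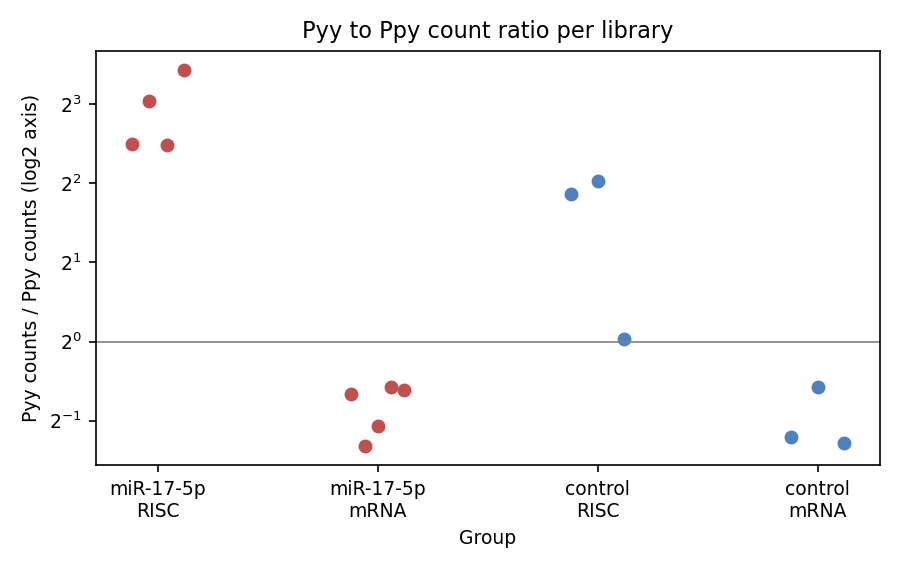
Pyy counts divided by Ppy counts in each library on a log2 axis, with RISC beside mRNA libraries for miR-17-5p (red) and control (blue) cells. All RISC libraries lie above the line at 1, control RISC library 3 just above it, and all mRNA libraries lie below it.

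Within RISC the make-up of the hormone counts shifted toward Gcg. Its share was 87.1% to 97.1% in miR-17-5p RISC and 79.6% to 85.6% in miR-17-5p mRNA libraries, and 88.6% to 94.7% in control RISC and 74.7% to 77.3% in control mRNA libraries, without overlap in either transfection. Sst took at most 1.26% in miR-17-5p RISC and 1.95% in control RISC libraries.

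Other genes listed for the hormone-producing cell types were called in both directions between RISC and mRNA. Their counts are read beside the shares over all genes. These were 21.7% higher and 21.8% lower in miR-17-5p cells and 5.96% higher and 22.3% lower in control cells. Of PP and epsilon cell genes, 2 of 5 were higher and 0 lower in RISC in miR-17-5p cells, and 1 of 5 higher and 2 lower in control cells. Etv1, a transcription factor listed for PP cells, was higher in RISC by 1.51 ± 0.17 in miR-17-5p and 2.00 ± 0.29 in control cells (SE, edgeR adjusted p = 3.73e-05 and 0.00861). Acsl1 was higher in miR-17-5p cells (0.84 ± 0.32, SE, edgeR adjusted p = 0.0493). Fev and Anxa13 were called lower in control cells (edgeR adjusted p = 0.00903 and 0.0114), where Fev had 1, 0 and 0 counts in RISC against 95, 62 and 31 in mRNA libraries, and Anxa13 had 0 in each RISC library against 58, 44 and 5 in mRNA libraries.

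Of delta cell genes, 4 of 8 were higher and 1 lower in RISC in miR-17-5p cells, and 1 of 8 higher and 2 lower in control cells. Casr, the calcium-sensing receptor, was higher in both (1.52 ± 0.25 in miR-17-5p and 1.03 ± 0.24 in control cells, SE, edgeR adjusted p = 0.000497 and 0.0228). Ptprz1 and Nrg1 were higher in miR-17-5p cells by 2.05 and 1.03 on the log2 scale (edgeR adjusted p = 0.000131 and 0.00534). Rbp4, a retinol carrier, was lower in both, with 0, 0, 2 and 33 counts in miR-17-5p RISC libraries against 121 to 374 in miR-17-5p mRNA libraries, and 0 in each control RISC library against 58 to 339 in control mRNA libraries. Ghsr, the ghrelin receptor, was called lower in control cells, with 0 counts in each RISC library against 36, 27 and 4 in mRNA libraries. Of alpha cell genes, 4 of 13 were higher and 2 lower in miR-17-5p cells, and 1 of 11 higher and 0 lower in control cells.

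Of pan-endocrine transcription factors, 8 of 15 were higher and 1 lower in RISC in miR-17-5p cells (median 1.13), and 4 of 15 higher and 0 lower in control cells (median 0.91). Neurod1 was higher by 2.64 ± 0.22 in miR-17-5p cells (SE, edgeR adjusted p = 4.16e-06). Of other peptide hormone genes, 1 of 13 was higher and 7 lower in miR-17-5p cells, and 1 of 14 higher and 8 lower in control cells. Igf2 was the 1 higher in both, by 2.16 ± 0.17 in miR-17-5p and 2.48 ± 0.22 in control cells (SE, edgeR adjusted p = 2.23e-06 and 0.00671), while Cartpt was called lower in both.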

How the data were processed

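Each of 15 libraries was deposited as a table of counts per gene. The deposited counts came from single-end reads, not strand-specific, which TopHat2 2.0.10 (with Bowtie2) placed on rn5 and HTSeq assigned to genes, per the labels' protocols and the submitters' processing notes. For HTSeq and Bowtie2 the version is not given in the sources used here. mRNA was selected with oligo(dT); for RISC the labels state no poly(A) selection. Reads of overlapping or antisense genes mix, and Ins1 and Ins2 are near-identical copies.

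Groups and replicate numbers came from sample titles; those in the descriptions are others. The p-values therefore measure library-to-library spread alone, and part of it may be technical. No library pair within a group agreed within sampling noise (chi-square per degree of freedom 6.78 to 323). Summary lines stayed out of library sizes; alignments not unique were 15.0% to 31.2%.

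Tests ran on counts with edgeR 4.0.16 in R 4.3.3 (TMM, filterByExpr, robust quasi-likelihood, two-sided), adjusted over all genes tested. Limma 3.58.1 and DESeq2 1.42.0 served alternatives. Correlations used a prior count of 2. The code was tested on simulated data. Fits with both library types assume 1 spread for each gene. Sequences came from RefSeq (GRCr8), which matched 14175 of 17055 symbols and all 5 hormone genes. Named were the 5 genes, Ins1, Ins2, Iapp, up to 3 genes of smallest p in a list, all called members of lists with 5 or fewer, and 3 genes most like each hormone, except 2 list genes that are not reported here; Hhex, Mboat4 and examples outside this were picked after their values were seen. Members and lists were chosen with earlier results of these data known.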

Additional observations from a re-analysis of the deposited data

Results flagged for a closer look

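Ghrl in miR-17-5p RISC library 2 stood apart from the other 3 libraries of its group, at 4.21 CPM, with a share of 0.131% of the 5 hormone genes' counts. Both values were far above the next highest library by Dixon's test at the 95% level (0.973 and 0.978 of the range, against 0.829). They come from the same 54 counts, and the others held 0, 1 and 0. Of 20 such tests 2 passed. Chance passes about 1 in 20 where values spread normally, which counts near 0 need not do. Control RISC libraries were not put to this test, and held 195, 0 and 0 Ghrl counts.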

How the results depend on the processing

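Results were recomputed with each replicate left out, a replicate block, limma-voom, DESeq2's Wald test, DESeq2 or upper quartile size factors, and either no filter or a mean count of 50 or more. For miR-17-5p against control in mRNA, 2 hormone genes were called; limma-voom called 4 (with Sst and Ppy), and leaving out a replicate gave 0 to 3. Over all genes 429 were called, 887 by DESeq2, 1001 by limma-voom, and 85 to 816 without a replicate; scaled to granule protein genes, 0 hormone genes and 2324 of all genes were called. In RISC, 35 genes were called, 1305 by DESeq2, 20 by limma-voom and 0 to 1225 without a replicate. The difference gave 1533, 0 by limma-voom and 1155 to 2452 without a replicate. RISC against mRNA in control cells gave 3 hormone genes, 1 by limma-voom (Ghrl) and 0 to 3 without a replicate; all genes were 2870, 1254 with a mean of 50 counts and 0 to 3114 without a replicate. In miR-17-5p cells 4 or 5 hormone genes and 3770 to 4780 of all genes were called without a replicate.

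Directions changed for log2 differences that were not called. In mRNA Gcg became 0.341 with granule scaling, and was -0.246 to 0.059 when a replicate was left out. In RISC limma-voom gave Pyy -0.361 and Sst 1.40, and leaving out a replicate gave Gcg -0.51 to 0.247 and Pyy -0.271 to 0.359. In the difference Sst became -0.011 with DESeq2 size factors and -0.007 by DESeq2, and Gcg 0.143 with a mean of 50 counts and 0.009 by limma-voom. Leaving out a replicate there gave Sst -0.313 to 0.652, Gcg -0.418 to 0.618, Ghrl -5.07 to 7.10 and Ppy -0.873 to 0.233. The cause was not tested.

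Same-numbered libraries shared no clear deviation from their group means, with correlations of -0.179 to 0.049. Libraries of different numbers were not compared, and RISC libraries were patchy, so this check cannot tell whether same-numbered libraries came from the same cells. The main fits left replicate numbers out. With the replicate block 0 hormone genes and 0 of all genes were called in mRNA, 30 of all genes in the difference, where Ghrl became 0.33, and 338 for RISC against mRNA in control cells. In mRNA only replicate numbers 1 and 2 occurred in both groups, so the blocked fit had little power to call any gene. No blocked fit was possible in RISC, where the groups share 1 number. RISC zeros and uneven depth limit what can be read for Sst and Ghrl.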
